A study of Mus musculus with 4 samples.

Results

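A set of 7 genes that tell fast motor neurons from slow ones was followed in RNA of lumbar spinal cord. The mice were wild type (WT) or G93A and were given spermidine (SD) or vehicle. The genes were chosen by name, all 7 were found among the 18674 gene names of the deposited table, and all 7 had a mean of at least 1 RPKM. RPKM is the number of reads divided by transcript length and by library size, so that levels can be set side by side between genes. Mmp9, Chodl, Calca and Calcb were taken as the 4 markers of fast, vulnerable motor neurons, and Esrrb, Esrrg and Sv2a as the 3 markers of slow, resistant ones. G93A mice carry a human SOD1 transgene with the G93A mutation, which is expressed throughout the body and not in motor neurons alone, and the study's methods name the G93A H1 high-expresser line on a B6/SJLF1 background and male mice. Each genotype had 1 vehicle and 1 SD library, and values given without a group name follow the order WT vehicle, WT + SD, G93A vehicle, G93A + SD. Treatment ran 4 times a week over 30 days, with PBS for the vehicle groups, whose treatment label reads none, and the methods give an age of 100 days at collection. For SD treatment in general the methods give 5 mg/kg by intraperitoneal injection, and no dose is stated apart for the sequenced mice. How many animals stand behind a library is not given in the sources used here, so that differences between conditions carry no replicate error and no p-value is given.

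Spinal motor neurons that drive muscle fibres are of several kinds. Fast motor neurons are large, innervate fast-twitch muscle and are lost early in SOD1 mice, whereas slow motor neurons and the gamma motor neurons of muscle spindles persist longer. MMP9 is a secreted gelatinase that fast motor neurons express, and chondrolectin (Chodl) is a membrane lectin of the same cells. Calca and Calcb encode the alpha and beta forms of calcitonin gene-related peptide (CGRP), a neuropeptide of motor neurons that sensory neurons also make. Esrrb and Esrrg encode the estrogen-related receptors beta and gamma, orphan nuclear receptors used as markers of slow and gamma motor neurons. SV2A is a synaptic vesicle glycoprotein that is enriched at the nerve terminals of slow motor neurons, although most neurons of the cord express it.

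The sequences that matter most for reading these values are those of the CGRP genes, because Calca makes different peptides by splicing and Calcb is a close relative. In GRCm38, Calca occupies chr7:114631478-114636357 (minus strand) and Calcb chr7:114718643-114723365 (plus strand). The table lists 2 Calca transcripts, which part after exon 3 (114634468 to 114634608). NM_001033954 goes on to the exon that encodes CGRP (114632416 to 114632599), and NM_007587 to the exon that encodes calcitonin (114633293 to 114633785). The junctions are shown from the GENCODE M21 transcripts, with the shared exon in lower case and the exon particular to each transcript in capitals.
Calca, CGRP transcript: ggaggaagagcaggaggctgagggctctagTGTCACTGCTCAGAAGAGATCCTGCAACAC
Calca, calcitonin transcript: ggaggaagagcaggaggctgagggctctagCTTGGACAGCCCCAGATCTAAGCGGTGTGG

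The coding sequences of the Calca CGRP transcript and of Calcb are 384 and 390 bases long and are identical at 325 of 381 aligned positions (85.3%). They hold a common run of 60 bases without a difference, longer than the 53 bp reads of the study. It opens the 120 coding bases shown next, from base 227 to 346 in Calca and from 230 to 349 in Calcb. In Calca the first of these bases ends exon 3, and the others lie in the exon that encodes CGRP. Capitals mark the 5 positions at which the genes differ.
Calca: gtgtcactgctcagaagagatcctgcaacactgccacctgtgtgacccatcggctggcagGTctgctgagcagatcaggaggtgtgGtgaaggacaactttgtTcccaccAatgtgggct
Calcb: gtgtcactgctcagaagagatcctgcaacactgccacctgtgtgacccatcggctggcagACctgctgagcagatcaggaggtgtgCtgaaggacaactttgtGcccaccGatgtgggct

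Of the 942 windows of 53 bases in the Calca CGRP transcript, 9 (0.96%) also occur in Calcb transcripts, and 8 of the 910 windows of Calcb (0.88%) occur in Calca. No window of the calcitonin transcript, Mmp9, Chodl, Esrrb, Esrrg or Sv2a occurs in a transcript of another gene, on either strand. How the authors assigned reads in the exons common to both Calca transcripts is not stated.

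Fast markers differed from each other in the G93A libraries. Chodl (chr16:78930948-78951733, plus strand) was the member with the largest difference between genotypes. It was at 19.0 RPKM in WT vehicle, 15.2 RPKM in WT + SD, 6.69 RPKM in G93A vehicle and 3.80 RPKM in G93A + SD. Both G93A libraries were below both WT libraries, and within each genotype the SD library was the lower. G93A vehicle had 35.1% of the level of WT vehicle, a log2 fold change of -1.496, and G93A + SD had 25.0% of the level of WT + SD, a log2 fold change of -1.97. Log2 fold changes are on the log2(RPKM + 0.1) scale throughout. Of the 12987 names with a mean of at least 1 RPKM, 13 had a lower log2 fold change than Chodl between the vehicle libraries and 7 between the SD libraries. In RNA of a whole piece of cord, fewer motor neurons and less RNA per motor neuron cannot be told apart. The Chodl values rest on an estimated 1777, 1473, 644 and 372 fragments.

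Mmp9 (chr2:164940780-164955850, plus strand) was the member with the lowest mean. It stood at 2.61 RPKM in WT vehicle, 2.26 RPKM in WT + SD, 1.30 RPKM in G93A vehicle and 0.667 RPKM in G93A + SD. The order of the libraries was that of Chodl. Its log2 fold change was -0.95 between the vehicle libraries and -1.62 between the SD libraries (G93A against WT in both). The values rest on an estimated 305, 275, 157 and 82 fragments. Neutrophils and microglia can also make MMP9, so the markers of these cells are given beside it. All 12 microglial genes were above their WT level in both G93A libraries, with a summed level of 186 and 163 RPKM in WT vehicle and WT + SD against 1251 and 1373 RPKM in G93A vehicle and G93A + SD. The sum of 8 neutrophil genes went from 2.62 and 2.37 RPKM in the WT libraries to 14.0 RPKM in each G93A library, most of it from Csf3r, while Elane was at 0.013 RPKM in G93A vehicle and listed at 0 in the other libraries. Without Csf3r the neutrophil list was mixed. S100a8, which encodes a calcium-binding protein abundant in neutrophils, had 0.583, 0.525, 0.938 and 0.364 RPKM, and its partner S100a9 had 0.328, 0.262, 1.27 and 0.342 RPKM. In G93A + SD against G93A vehicle 6 of the 8 neutrophil genes were below 0, as Mmp9 was and as 8711 of all 18674 names were. S100a8 (-1.16) and S100a9 (-1.64) were at least 1.5-fold lower. Camp, Ltf, Elane and Mpo were among those below 0 but stood under 0.1 RPKM in both G93A libraries. Csf3r, the only neutrophil gene with a mean of at least 1 RPKM, was above 0 (0.19). The part of these cells in the Mmp9 level was not tested.

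Calca did not follow Chodl and Mmp9. Its mean of both transcripts was 17.5 RPKM in WT vehicle, 20.6 RPKM in WT + SD, 25.4 RPKM in G93A vehicle and 24.4 RPKM in G93A + SD. Both G93A libraries were above both WT libraries. G93A against WT gave a log2 fold change of 0.53 under vehicle and 0.25 under SD, and neither reached 1.5-fold. The CGRP transcript went from 24.3 RPKM in WT vehicle to 36.3 RPKM in G93A vehicle, which is 149% of the WT level and just short of 1.5-fold. It had 29.0 RPKM in WT + SD and 35.6 RPKM in G93A + SD. The calcitonin transcript had 10.7, 12.2, 14.5 and 13.3 RPKM. The ratio of the CGRP to the calcitonin transcript was 2.27 and 2.37 in the WT libraries and 2.51 and 2.68 in the G93A libraries, so that the CGRP transcript was the higher in each library. The transcripts share 2 whole exons of 236 bases, 23.7% of the CGRP transcript and 28.4% of the calcitonin transcript. Reads in shared exons may be counted for both, so that the calcitonin values and the ratio may hold CGRP reads. Their part was not tested.

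Calcb was nearly level across the libraries, with 6.02 RPKM in WT vehicle, 6.60 RPKM in WT + SD, 6.25 RPKM in G93A vehicle and 5.53 RPKM in G93A + SD. The WT and G93A libraries overlapped. The log2 fold change was 0.054 between the vehicle libraries and -0.25 between the SD libraries. The ratio of Calca to Calcb was 2.91 and 3.12 in the WT libraries and 4.06 and 4.42 in the G93A libraries.

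**Figure D1:**
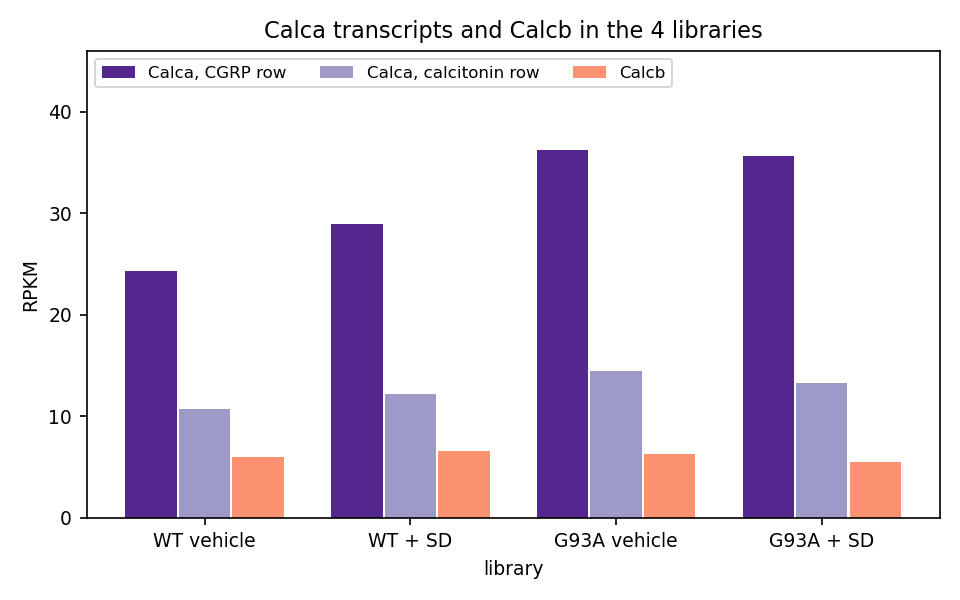
RPKM of the Calca transcript that encodes CGRP, the Calca transcript that encodes calcitonin, and Calcb, with 1 bar per library (1 library per condition, no error). Both Calca transcripts share exons, and how reads there were assigned is not stated. The CGRP transcript stands at 24.3 and 29.0 RPKM in the WT libraries and at 36.3 and 35.6 RPKM in the G93A libraries, while Calcb stays between 5.53 and 6.60 RPKM.

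CGRP is also a peptide of primary sensory neurons, whose markers were therefore read in the same libraries. Of 9 sensory neuron and dorsal root genes in the table, 1 had a mean of at least 1 RPKM, the neuropeptide gene Tac1, with 22.4, 17.9, 21.3 and 22.1 RPKM. The nociceptor sodium channel gene Scn10a was listed at 0 in both WT libraries and stood at 0.0083 and 0.0020 RPKM in G93A vehicle and G93A + SD. The summed level of the 9 genes, most of it from Tac1, was 24.1, 19.6, 23.3 and 24.5 RPKM in the same order. Like Tac1 itself, the sum was lower in G93A vehicle than in WT vehicle but higher in G93A + SD than in WT + SD. Avil, a gene of peripheral sensory neurons, was at 0.123 and 0.145 RPKM in the WT libraries and at 0.553 and 0.774 RPKM in the G93A libraries, higher in both as Calca was. The part of such cells in the Calca level was not tested.

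The slow markers were lower in both G93A libraries. Esrrg (chr1:187608791-188214885, plus strand) had 18.8 RPKM in WT vehicle, 19.6 RPKM in WT + SD, 12.3 RPKM in G93A vehicle and 9.38 RPKM in G93A + SD. Both G93A libraries were below both WT libraries. The log2 fold change was -0.61 between the vehicle libraries and -1.06 between the SD libraries. Other annotated genes, 9330162B11Rik and Gm38315, lie within its introns and over no exon of the listed transcript.

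Esrrb (chr12:86361117-86521628, plus strand) was lower in abundance but had nearly the same profile. The mean of its 2 transcripts was 2.33 RPKM in WT vehicle, 2.64 RPKM in WT + SD, 1.504 RPKM in G93A vehicle and 1.16 RPKM in G93A + SD. The log2 fold change was -0.60 between the vehicle libraries and -1.12 between the SD libraries. The transcripts start at 86361117 and 86421644, and their log2 fold changes were -0.59 for NM_001159500 and -0.61 for NM_011934 between the vehicle libraries. The ratio of Esrrg to Esrrb stayed between 7.45 and 8.15 in the 4 libraries, although the G93A libraries had less of both. Centred log2 profiles of these receptors differed by a root mean square of 0.041 over the 4 libraries, the smallest value among the 21 pairs of members.

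Sv2a (chr3:96181151-96195521, plus strand) was the most abundant member. It was at 115 RPKM in WT vehicle, 113 RPKM in WT + SD, 91.4 RPKM in G93A vehicle and 83.0 RPKM in G93A + SD. The G93A libraries lay below the WT libraries by a log2 fold change of -0.33 under vehicle and -0.44 under SD, neither of which reached 1.5-fold.

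**Figure D2:**
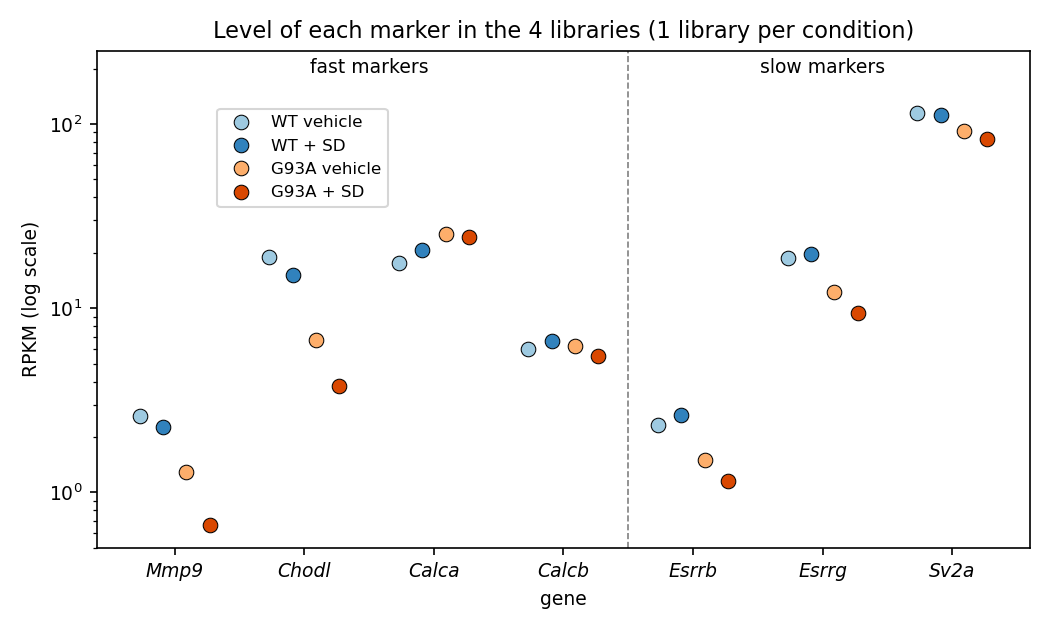
RPKM on a log axis for the 4 fast and the 3 slow markers, with 1 point per library (1 library per condition, so no error is drawn). Chodl, Mmp9, Esrrb, Esrrg and Sv2a are lower in both G93A libraries than in both WT libraries, Calca is higher in both, and the Calcb points lie close together.

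Read as lists, the fast and slow markers were not set apart by genotype. Between the vehicle libraries the median log2 fold change was -0.45 for the 4 fast markers and -0.60 for the 3 slow markers, against 0.046 over all 18674 names. Between the SD libraries it was -0.94 and -1.06, against 0.050 over all names. The fast median was thus 0.15 above the slow median under vehicle and 0.12 above it under SD. It is the middle of values that lie far apart, since the fast markers ranged from -1.496 to 0.53 under vehicle and the slow markers from -0.61 to -0.33. In both comparisons between genotypes 4 of the 7 members were at least 1.5-fold lower and 0 at least 1.5-fold higher. These were Chodl, Mmp9, Esrrb and Esrrg. With a pseudocount of 1 RPKM, Esrrb (-0.41) and Esrrg (-0.577) fell short of 1.5-fold between the vehicle libraries. Over all names 5.31% were at least 1.5-fold lower and 14.4% higher between the vehicle libraries, and 7.82% lower and 17.1% higher between the SD libraries. Beside this, the 6 lumbar Hox genes, transcription factor genes that mark the level of the cord, had a median of -0.50 between the vehicle libraries, with all 6 below 0 and 1 at least 1.5-fold lower, and of -0.51 between the SD libraries, with 5 below 0 and 2 at least 1.5-fold lower. The part of the level of cord in the marker values was not tested. Because the members were named with earlier results on these libraries known, their counts are given as a description.

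Ratios within a library, chosen after the values had been seen, do not depend on how libraries are scaled. Chodl to Esrrg was 1.01 and 0.773 in the WT libraries and 0.545 and 0.405 in the G93A libraries, vehicle first. Mmp9 to Esrrb was 1.12, 0.859, 0.863 and 0.577 in the same order, with WT + SD and G93A vehicle close to each other. Chodl to Calca had the widest range, with 1.09 and 0.737 in the WT libraries against 0.264 and 0.156 in the G93A libraries. With these genes both counted as fast markers, the ratio went further from its WT value than either ratio of a fast to a slow marker.

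**Figure D3:**
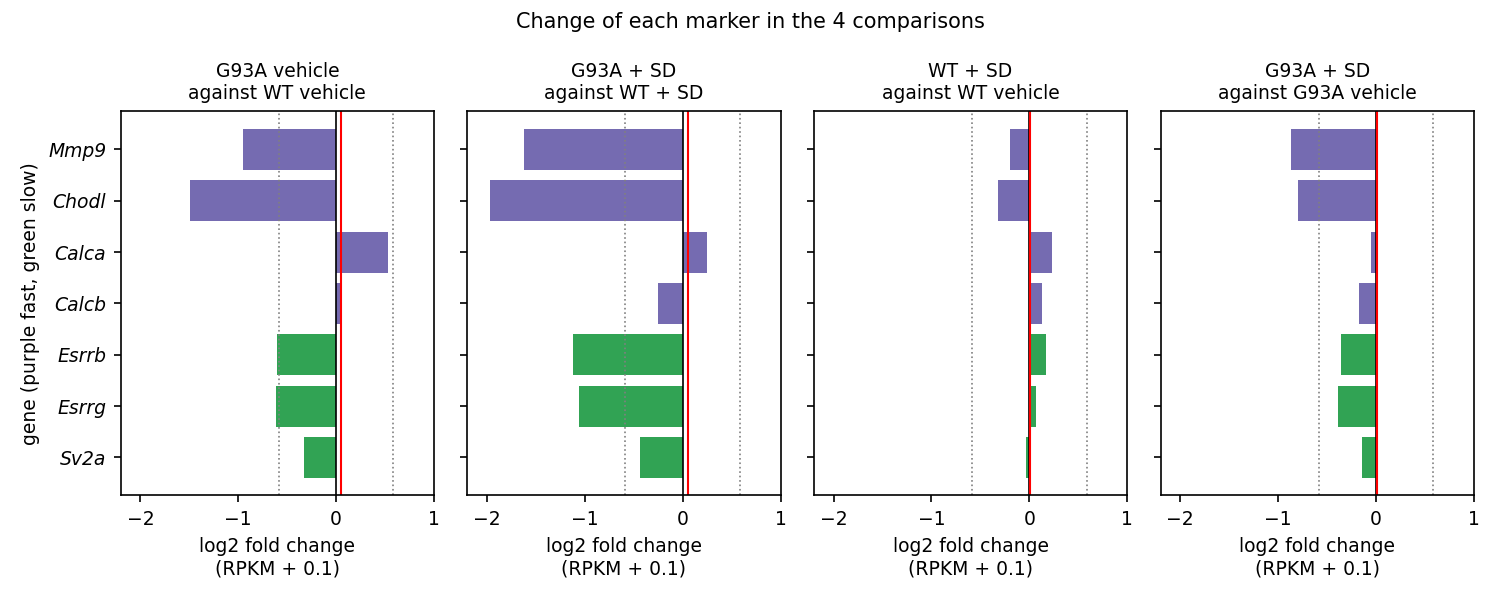
Log2 fold change (RPKM + 0.1) of each marker in the 4 comparisons, purple for fast and green for slow markers, with dotted lines at 1.5-fold and a red line at the median of all names. Chodl (-1.496 and -1.97) and Mmp9 (-0.95 and -1.62) have the longest bars between genotypes, Calca points the other way, and the bars between the WT libraries are short.

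SD did not bring any member at least 1.5-fold up or down in WT cord. In WT + SD against WT vehicle the log2 fold changes ranged from -0.32 for Chodl to 0.23 for Calca, with 4 members above 0 and 3 below. Over all names 2.25% were at least 1.5-fold higher and 2.8% lower in this comparison. In G93A cord all 7 members were lower in G93A + SD than in G93A vehicle, and 2 of them at least 1.5-fold, Mmp9 (log2 fold change -0.87) and Chodl (-0.80). With a pseudocount of 1 RPKM, Mmp9 (-0.46) fell short of 1.5-fold. Over all names 2.55% were at least 1.5-fold lower and 2.97% higher in G93A + SD. Mmp9 in G93A + SD had 51.4% of its level in G93A vehicle, and Chodl 56.9%. The estrogen-related receptors were lower by less, -0.35 for Esrrb and -0.38 for Esrrg, followed by -0.17 for Calcb, -0.14 for Sv2a and -0.053 for Calca. The median was -0.49 for the fast and -0.35 for the slow markers, against 0.0068 over all names. G93A + SD was the lowest of the 4 libraries for 6 of the 7 members, the exception being Calca, which was lowest in WT vehicle. The comparisons share libraries, so that a low value in G93A + SD enters both of those that use it.

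Markers of other cells also differed between the SD and vehicle libraries. Prx, a gene of myelinating Schwann cells, was the higher with SD in both genotypes, at 0.129, 0.150, 0.271 and 0.442 RPKM, whereas Pmp2, Pmp22 and Egr2 were not higher in both. The summed level of 8 astrocyte genes was 3857 RPKM in G93A vehicle and 4620 RPKM in G93A + SD, against 1485 and 1426 RPKM in the WT libraries. The lumbar Hox genes were all below 0 between the G93A libraries, from -0.33 to -0.015, with a median of -0.050. The part of such differences in the marker levels was not tested.

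Motor neuron genes in general give the scale for these changes. The identity list holds cholinergic genes, motor neuron transcription factors and neurofilaments, and 11 of its 12 genes were lower in G93A under vehicle, 7 of them at least 1.5-fold, with a median log2 fold change of -0.64. Between the SD libraries 10 of the 12 were at least 1.5-fold lower, with a median of -0.90. Of the 12, 8 had a mean of at least 1 RPKM. The others, Isl1, Isl2, Mnx1 and Lhx3, had means from 0.381 to 0.787 RPKM, where the pseudocount weighs more. Chat, which encodes the enzyme that makes acetylcholine, had 9.83 RPKM in WT vehicle, 8.57 RPKM in WT + SD, 6.55 RPKM in G93A vehicle and 4.33 RPKM in G93A + SD. Isl1, a transcription factor that other spinal neurons also express, stayed between 0.760 and 0.812 RPKM in the 4 libraries. Measured from the median of this list under vehicle, Chodl was lower by a further -0.85 and Mmp9 by -0.31, Esrrb and Esrrg lay at 0.041 and 0.031, Sv2a at 0.31, Calcb at 0.70 and Calca at 1.18. Under SD the same differences were -1.07 for Chodl, -0.73 for Mmp9, -0.23 for Esrrb, -0.16 for Esrrg, 0.46 for Sv2a, 0.64 for Calcb and 1.14 for Calca.

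Genes of neurons at large were lower as well. All 9 pan-neuronal genes in the table were below 0 in both comparisons between genotypes, with a median of -0.41 under vehicle and -0.54 under SD. Sv2a lay 0.076 and 0.10 above these medians, closer to them than any other member in both comparisons. Snap25, which encodes a membrane fusion protein of nerve terminals, had a log2 fold change of -0.70 under vehicle.

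**Figure D4:**
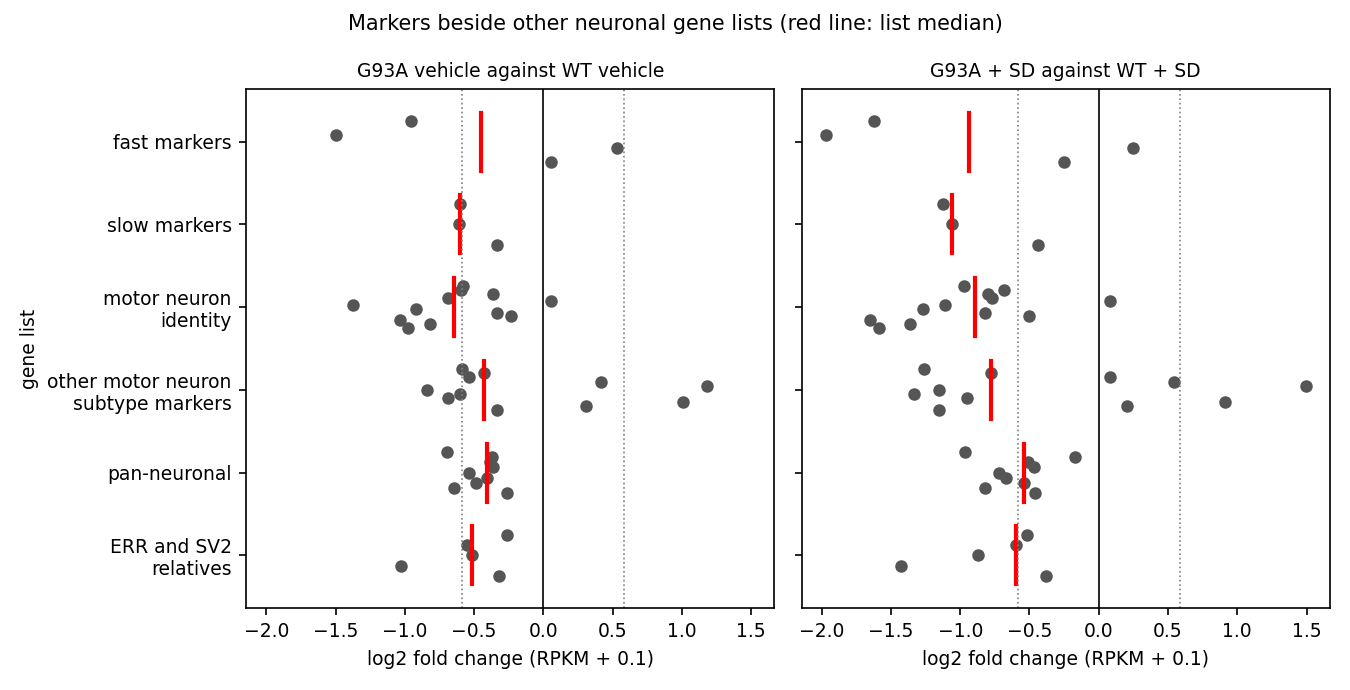
Log2 fold change (RPKM + 0.1) of each gene of the member lists and 4 other neuronal lists, G93A against WT under vehicle and under SD, with 1 point per gene, a red line at each list's median and dotted lines at 1.5-fold. The fast markers spread from -1.496 to 0.53 under vehicle, and the pan-neuronal genes lie between -0.70 and -0.26.

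Other genes used to tell motor neuron kinds apart also went in both directions. Of 11 in the table, 4 were at least 1.5-fold lower and 2 at least 1.5-fold higher in G93A vehicle, with a median of -0.43. Kcng4, a potassium channel subunit gene of fast motor neurons, had 25.0, 24.1, 16.6 and 9.998 RPKM. Dlk1, which encodes a Notch pathway ligand used as a fast marker, had 15.8, 15.6, 11.7 and 9.04 RPKM. Vipr2, an alpha motor neuron marker that encodes a receptor for vasoactive intestinal peptide, had 1.501, 1.71, 0.953 and 0.617 RPKM. Each of these genes was lowest in G93A + SD. Kcnn3, a potassium channel gene of slow motor neurons, had 2.11, 2.25, 2.85 and 3.32 RPKM, and the protein kinase C delta gene Prkcd had 6.34, 5.92, 14.5 and 16.8 RPKM, both highest in G93A + SD. The gamma motor neuron markers were split, since Htr1d, a serotonin receptor gene, had 1.18, 1.44, 0.695 and 0.698 RPKM, and Gfra1, a GDNF receptor gene, had 16.3, 19.4, 33.0 and 36.6 RPKM.

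Relatives and partners of the members completed the picture. The SV2 family genes Sv2b and Sv2c were lower in G93A vehicle by more than Sv2a was, with log2 fold changes of -0.84 and -1.03. Sv2c had 37.8, 38.9, 18.5 and 14.4 RPKM, and Sv2b 31.2, 30.7, 17.4 and 13.7 RPKM. Esrra, the third estrogen-related receptor gene, and the coactivator genes Ppargc1a and Ppargc1b had log2 fold changes of -0.26, -0.55 and -0.52 between the vehicle libraries. None of these reached 1.5-fold there, but Ppargc1a (-0.60) and Ppargc1b (-0.87) did between the SD libraries. The genes of the CGRP receptor, Calcrl and its partner Ramp1, had log2 fold changes of 0.48 and 0.44 between the vehicle libraries, short of 1.5-fold, and of 0.84 and 0.50 between the SD libraries, where Calcrl passed it. Timp1, which encodes an inhibitor of MMP9, stood at 0.185 and 0.304 RPKM in the WT libraries and at 30.6 and 39.3 RPKM in the G93A libraries. The other gelatinase gene, Mmp2, had 2.09, 3.14, 2.89 and 5.36 RPKM, opposite to Mmp9 in both SD comparisons. All 7 genes of the gelatinase list were above 0 in both comparisons between genotypes.

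Genes with the profile most like that of a member were found by the root mean square difference of centred log2(RPKM + 0.1) values over the 4 libraries, among 12986 other names with a mean of at least 1 RPKM. With 4 libraries many names come close, and 725 names lay within 0.1 of Calca, 2376 of Calcb and 1658 of Sv2a. Only 4 lay so close to Mmp9, 169 to Esrrb, 236 to Esrrg and 0 to Chodl. The nearest to Mmp9 were the potassium channel subunit gene Kcng1 (0.044), the NMDA receptor subunit gene Grin3b (0.055) and the neurofilament light gene Nefl (0.069). Nefl had 812, 763, 413 and 254 RPKM. The nearest to Chodl were Slc5a11 (0.16), Asb16 (0.20) and Kcng1 (0.20). Esrrb was nearest to 6330527O06Rik, Slit2 and Htr1b (0.024 to 0.027), and Esrrg to Mcf2, Kcnab1 and Fgf9 (0.0089 to 0.015). For Calca these were Zfp691, Dusp14 and Fam165b, for Calcb 2310016M24Rik, Otud7b and Ccdc163, and for Sv2a Wdtc1, Dcaf12l1 and Ndufb8.

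For Chodl and Calca, picked as fast markers with opposite directions, the 250 bases before the start sites are shown. A link of these letters to the directions was not tested. The promoters are from RefSeq (GRCm38.p6), which held windows for 5 of the 7 members. The Chodl window is chr16:78930698-78930947 on the plus strand, and the Calca window chr7:114636358-114636607 on the minus strand. Motifs were searched on both strands as exact letters, namely TGACGTCA (the cAMP response element), its core TGACG, which the full element contains, AAGGTCA (an element for estrogen-related receptors) and CCAAT. Capitals mark the matches.
Chodl promoter: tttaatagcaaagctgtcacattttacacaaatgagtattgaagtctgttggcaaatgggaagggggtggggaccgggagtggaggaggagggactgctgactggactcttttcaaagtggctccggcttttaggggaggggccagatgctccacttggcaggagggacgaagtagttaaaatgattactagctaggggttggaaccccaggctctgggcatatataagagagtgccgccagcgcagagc
Calca promoter: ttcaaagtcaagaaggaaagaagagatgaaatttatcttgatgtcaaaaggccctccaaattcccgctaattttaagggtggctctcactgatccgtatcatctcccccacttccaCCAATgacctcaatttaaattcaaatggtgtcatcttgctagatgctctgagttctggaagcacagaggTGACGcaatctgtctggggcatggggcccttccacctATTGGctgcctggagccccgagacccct

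The Calca window held 1 TGACG and 2 CCAAT motifs, and the Chodl window none of the 4 motifs. Among 32851 windows of the same length, 17.8% held TGACG, 33.8% CCAAT, 4.08% AAGGTCA and 1.55% TGACGTCA. The distal Esrrb window held 2 TGACG motifs and the other 1 CCAAT motif, 1 Esrrg window held 2 CCAAT motifs, and none of the 9 windows of the members held AAGGTCA or TGACGTCA. A match is a description of these letters and no measure of binding.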

How the data were processed

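Lumbar cord RNA was measured in 4 libraries, 1 per group, with groups from the sample titles. The authors' methods describe polyA selection, 53 bp reads, STAR alignment to GRCm38 and counting by HTSeq against Ensembl genes. There are 23750 RefSeq transcript rows in the table, and no unit is named in it. The values were taken as RPKM as deposited by the authors, since values multiplied by transcript length give sums that differ little between libraries. The 3 ratio columns of the authors' own comparisons were not used.

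Rows of a name were averaged, and log2 fold changes were computed from RPKM + 0.1 with no test. A difference of at least 1.5-fold on that scale is counted. Lengths and positions came from GENCODE M21 (GRCm38), and 97.0% of rows had a length. Depth is not given. The most frequent low value of RPKM multiplied by length was read as 1 fragment, which puts the libraries at 36800000 to 38600000 fragments, so that fragment numbers are estimates and no interval was derived from them. Genotype labels were checked on microglial genes, while the SD labels and the human transgene could not be checked in this table.

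The members and all gene lists were chosen with earlier results of these data known. The genes named are the members, genes of those lists, the 3 names nearest in profile to each member, and genes that overlap a member. Listed genes not found by symbol were Rbfox3, Map2, Mrgprd, Ly6g and Ncmap, and 1 listed gene is not reported here. The alternatives were a pseudocount of 1 RPKM or none, median-ratio scaling, the highest row or the sum of rows of a name, a mean of at least 1 RPKM, and 2-fold. The tools were pandas 2.3.3 and numpy 2.4.6 under Python 3.11.15, with matplotlib 3.10.9 for plots, and the fold change step was tested on simulated data.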

Additional observations from a re-analysis of the deposited data

Results flagged for a closer look

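For 4 members the library with SD was above the vehicle library in WT cord and below it in G93A cord. The difference between these log2 fold changes, G93A minus WT, was -0.29 for Calca, -0.31 for Calcb, -0.52 for Esrrb and -0.45 for Esrrg. With 1 library per condition, each difference was not tested. Mmp9 and Chodl were lower with SD in both genotypes, by -0.20 and -0.32 in WT and by -0.87 and -0.80 in G93A, and Sv2a by -0.032 and -0.14.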

How the results depend on the processing

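No paired analysis was possible because each group has 1 library, and no library could be left out for the same reason. Of 268 values under the alternatives, 247 stayed within 0.1 on the log2 scale, with the same sign, or within 1.5 times for a count of members. Part of these values could not change, so that the count overstates how far the results were tried. Only Calca and Esrrb have several rows to choose or sum, and no member falls below a mean of 1 RPKM. With a pseudocount of 1 RPKM, which lowers the differences of low genes such as Mmp9 and Esrrb, the medians of the fast and slow markers were -0.30 and -0.41 between the vehicle libraries, -0.59 and -0.75 between the SD libraries, and -0.31 and -0.22 in G93A + SD against G93A vehicle. The members at least 1.5-fold lower then numbered 2 between the vehicle libraries and 1 in G93A + SD against G93A vehicle, and at 2-fold they numbered 1 and 0. Calcb between the vehicle libraries was -0.0094 with median-ratio scaling, so that its direction there is not settled. The estimated fragments in G93A + SD are fewest for Mmp9, Esrrb and Calcb, and no spread between animals is known for any member.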
